A study of Mus musculus with 8 samples.

Results

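The costimulation receptors and ligands were 10 genes chosen by name, Cd28, Icos, Cd40lg, Tnfrsf4, Tnfrsf9, Tnfrsf18, Cd27, Cd80, Cd86 and Cd40, of 24405 genes counted in allografted mouse organs and recipient blood. 9 of the 10 had a row in all 8 count tables, and Cd40lg had one in 7, with none in heart PBMC, where it was taken as 0. Single cells were captured by Microwell-seq, in which each captured mRNA molecule carries a unique molecular identifier (UMI), from PBMCs and tissue-infiltrating lymphocytes (TILs) of heart, liver and kidney allografts and from parenchymal cells (PCs) of liver and kidney, 1 library for each. The grafts came from BALB/c donors and the recipients were C57BL/6J mice that received no immunosuppression, and samples were taken on day 7 after transplantation. Per the labels all mice were BALB/c, male and 8 weeks old. Per the study's methods each organ had a pair of recipients. How their cells were divided among libraries was not stated, so libraries of an organ may share animals, and conditions stand on 1 library each and were not tested.

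Barcodes of at least 500 UMIs were taken as cells, which left 47542 cells. T cells were cells with a UMI of Cd3d, Cd3e or Cd3g, B cells had at least 2 UMIs of Cd79a and Cd79b, macrophages had a UMI of Csf1r, and a cell in more than 1 of these gates was left out. The gates held 22327 T cells, 510 B cells and 3395 macrophages. Within the T cells, 2787 had a UMI of Ctla4 or Foxp3, 11361 of the others had a UMI of Cd8a or Cd8b1 and none of Cd4 (CD8 T cells), and 124 had a UMI of Cd4 and none of Cd8a or Cd8b1 (CD4 T cells). Levels are UMIs of a gene divided by all UMIs of the gate in a library and scaled to 1000000 (CPM), and intervals in parentheses are exact 95% intervals that cover counting error only.

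T cells need a second signal beside that of the antigen receptor. Cd28 and Icos belong to the immunoglobulin family and bind Cd80 and Cd86, and Icosl, on antigen-presenting cells. Cd28 is present on resting T cells, whereas Icos is induced by activation, and Ctla4 competes with Cd28 for the same ligands. Tnfrsf4 (OX40), Tnfrsf9 (CD137), Tnfrsf18 (GITR) and Cd27 are receptors of the tumour necrosis factor family that signal through Traf adapters to NF-kappaB. Tnfrsf4 and Tnfrsf18 are known to be high on regulatory T cells. Cd40 acts in the other direction: it sits on B cells, macrophages and dendritic cells and is engaged by Cd40lg on activated helper T cells.

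Several members are neighbours in the genome. On GRCm38, in a GENCODE annotation chosen here, Cd28 (chromosome 1, 60716800 to 60773359), Ctla4 and Icos (60977927 to 61000320) lay in a row on the same strand. Tnfrsf4 (chromosome 4, 156013843 to 156016612) and Tnfrsf18 (156026164 to 156028895) were 9551 bases apart, with Tnfrsf9 on the same chromosome (150914562 to 150946102). Cd27 (chromosome 6, 125232622 to 125237010) overlapped Vamp1 on the other strand, as did Tnfrsf9 with Camta1 and Tnfrsf18 with the antisense gene Gm16008, and Icos overlapped Gm37039 on its own strand. Whether counting used strand was not given in the sources used here, so UMIs of these pairs cannot be told apart. Promoter sequences, from 250 bases before to 50 after a RefSeq start, were matched for 5 of the 10 members. Those of the TNF receptors on chromosome 4 are shown because Tnfrsf4 and Tnfrsf18 differed together between the T cell gates below, while Tnfrsf9 did not pass the test there. Cd28 and Icos, which also passed there, had no promoter entry, and a link between matches and calls was not tested. Capitals mark matches, on either strand, to the NFAT core GGAAA, the AP-1 motif TGANTCA and the kappaB consensus. The build is GRCm38.p6 and all 3 are on the plus strand.
Tnfrsf4, chr4:156013445-156013744: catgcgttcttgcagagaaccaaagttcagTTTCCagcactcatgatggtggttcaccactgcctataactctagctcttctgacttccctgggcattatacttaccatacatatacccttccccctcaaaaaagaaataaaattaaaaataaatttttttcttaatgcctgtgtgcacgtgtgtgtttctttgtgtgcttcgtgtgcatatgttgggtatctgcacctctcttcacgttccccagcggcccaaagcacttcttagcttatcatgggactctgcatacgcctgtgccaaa
Tnfrsf18, chr4:156026072-156026371: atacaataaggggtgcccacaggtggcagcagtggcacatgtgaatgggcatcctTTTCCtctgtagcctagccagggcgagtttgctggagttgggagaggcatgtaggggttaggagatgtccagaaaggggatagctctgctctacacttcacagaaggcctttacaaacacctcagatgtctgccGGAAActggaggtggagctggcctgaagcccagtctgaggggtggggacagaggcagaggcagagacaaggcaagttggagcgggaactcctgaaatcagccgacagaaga
Tnfrsf9, second RefSeq start, chr4:150927749-150928048: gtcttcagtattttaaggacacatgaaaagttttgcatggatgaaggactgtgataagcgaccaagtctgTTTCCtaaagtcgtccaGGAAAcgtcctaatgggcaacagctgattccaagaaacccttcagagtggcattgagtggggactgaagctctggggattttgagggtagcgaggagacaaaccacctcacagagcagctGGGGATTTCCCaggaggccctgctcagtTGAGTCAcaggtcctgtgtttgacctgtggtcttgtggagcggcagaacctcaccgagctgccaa
The Tnfrsf4 window held 1 GGAAA match and the Tnfrsf18 window 2, and neither held a kappaB or AP-1 match. The Tnfrsf9 window held 3 GGAAA matches, 2 overlapping kappaB matches, with which 1 of the GGAAA matches overlaps, and 1 AP-1 match. The window of the first RefSeq start of Tnfrsf9, chr4:150919905-150920204, held 2 GGAAA matches, 0 kappaB and 0 AP-1 matches. Cd27, which like Tnfrsf9 did not pass that test, held 1 GGAAA match and 0 kappaB and 0 AP-1 matches. The Cd80 window held 1 AP-1 match and 0 of the others. Of 32851 promoter windows, 61.3% held GGAAA, 7.81% the AP-1 motif and 8.46% the kappaB consensus, and these matches are a description of letters, not of binding.

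Some libraries stood apart. The library labelled heart TIL held 1056 UMIs of the hepatocyte gene Alb and 2 of the atrial gene Myl7, and the library labelled liver TIL held 0 of Alb and 128 of Myl7, against their labels, so both are called by their labels and key results are also given without them. In heart and liver PBMC, the neutrophil genes S100a8 and S100a9 made up 11% and 5.44% of the UMIs of CD8 T cells, against 0.00593% to 2.65% in the other libraries. Macrophage genes were also present in T cells: C1qa stood at 604 CPM in CD8 T cells of the library labelled heart TIL and 942 CPM in those of the library labelled liver TIL, against 1438 and 2295 CPM in their macrophages. Cells left out for passing more than 1 gate were 1.57% to 24.0% of a library's cells, no doublet caller was run, and any 2 libraries shared 123 to 617 barcodes. The T gate carried its unused markers (Trac, Trbc1, Trbc2, Lck and Thy1 summed to 2220 to 6377 CPM, against 250 to 3313 CPM in macrophages). Erythroid genes (Hbb-bs and Hba-a1 summed) stood at 36471 CPM in CD8 T cells of the library labelled liver TIL, against 305 and 1231 CPM in those labelled heart TIL and kidney TIL, 2.41 and 12612 CPM in liver and kidney PC and 190 to 7615 CPM in blood. Plasma cell genes stood at 3184 CPM in CD8 T cells of the library labelled liver TIL and at 89.8 to 625 CPM in the others. The macrophages of blood were low in macrophage markers, with a summed level of 300 to 828 CPM, against 5300 to 8511 CPM in the tissue libraries.

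T cells were compared with macrophages within each library to place the receptor and the ligand side. 6 members were higher in T cells (Cd27, Cd28, Tnfrsf9, Icos, Tnfrsf18 and Tnfrsf4) and 2 were higher in macrophages (Cd40 and Cd86). Of all 5476 genes tested, 21.1% were called higher and 15.8% lower in T cells, or 36.9% in either direction. The median log2 difference of the 8 members tested was 1.92, beside 0.12 over all genes. Cd40lg and Cd80 had too few UMIs to be tested.

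**Figure D1:**
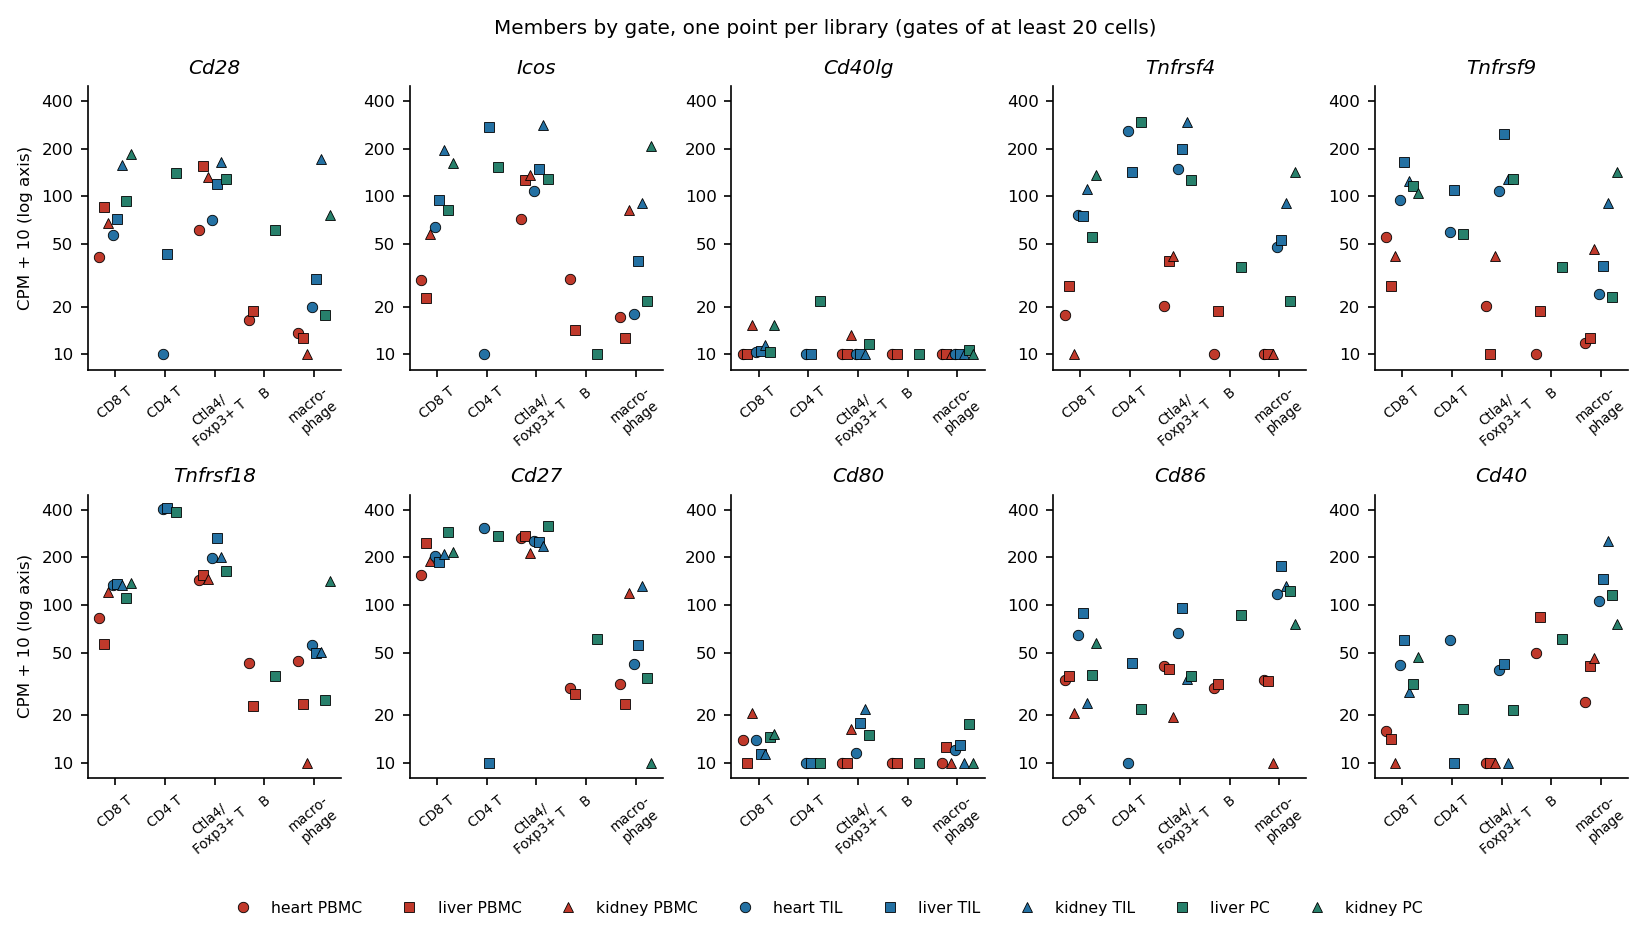
Level of each member (CPM + 10, log axis) in CD8 T, CD4 T, Ctla4/Foxp3-positive T, B and macrophage gates, 1 point per library and only gates of at least 20 cells, with colour for the compartment and shape for the organ. Cd27, Tnfrsf18, Cd28, Icos and Tnfrsf9 sit higher in the T gates than in macrophages of most libraries. Cd40 and Cd86 sit higher in macrophages than in the T gates of most libraries. Cd40 in B cells lies at 39.6 to 74.1 CPM, and Cd40lg and Cd80 stay near 0.

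Cd27, which supports the survival of activated T cells, ranged from 87.9 to 270 CPM in T cells (median 164) and from 0 to 122 CPM in macrophages (median 28.2), and was higher in T cells in 8 of 8 libraries. The log2 difference was 2.51 with a standard error of 0.21 (adjusted p = 9.42e-16, edgeR). Cd28 ranged from 18.3 to 134 CPM in T cells (median 69.5) and from 0 to 162 CPM in macrophages (median 8.87). Its log2 difference was 2.49 with a standard error of 0.27 (adjusted p = 9.92e-12), and it was higher in T cells in 7 of 8 libraries. The exception was kidney TIL, where 37 macrophages gave 4 Cd28 UMIs, and the ranges of both groups overlapped. Icos ranged from 16.3 to 204 CPM in T cells (median 82.0) and from 2.69 to 199 CPM in macrophages (median 20.5), with a log2 difference of 2.03 and a standard error of 0.24 (adjusted p = 1.10e-10).

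The other TNF receptors were higher in T cells as well. Tnfrsf9 ranged from 12.2 to 139 CPM in T cells (median 77.8) and from 1.81 to 132 CPM in macrophages (median 20.04), with a log2 difference of 2.47 and a standard error of 0.24 (adjusted p = 1.98e-13). Tnfrsf18 ranged from 52.8 to 139 CPM in T cells (median 121) and from 0 to 132 CPM in macrophages (median 37.1), with a log2 difference of 1.80 and a standard error of 0.21 (adjusted p = 9.50e-11). Tnfrsf4 had the smallest difference of the 6, 1.51 with a standard error of 0.25 (adjusted p = 6.42e-07), with medians of 72.3 and 25.0 CPM, and it was at 0 UMIs in the macrophages of all 3 blood libraries. For Cd28, Icos, Tnfrsf4, Tnfrsf9 and Tnfrsf18, the 1 or 2 libraries that went the other way were kidney ones, whose macrophage gates hold 23 to 37 cells. Without the libraries labelled heart TIL and liver TIL the log2 differences of the 6 receptors were 1.90 to 2.90 and all passed the test.

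Cd40 and Cd86 lay on the other side. Cd40 ranged from 6.2 to 61.5 CPM in T cells (median 18.2) and from 14.5 to 243 CPM in macrophages (median 81.2), and was lower in T cells in 8 of 8 libraries. The log2 difference was -1.61 with a standard error of 0.20 (adjusted p = 3.70e-10). Cd86, a ligand of Cd28 and Ctla4, ranged from 7.75 to 86.2 CPM in T cells (median 29.8) and from 0 to 166 CPM in macrophages (median 87.2). Its log2 difference was -1.05 with a standard error of 0.19 (adjusted p = 5.33e-06), and it was lower in T cells in 6 of 8 libraries. Both libraries that went the other way were blood, with 22.9 and 0 CPM in the macrophages of liver and kidney PBMC against 29.8 and 7.75 CPM in T cells. Without the libraries labelled heart TIL and liver TIL the log2 differences were -2.06 for Cd40 and -1.08 for Cd86, and both passed the test.

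**Figure D2:**
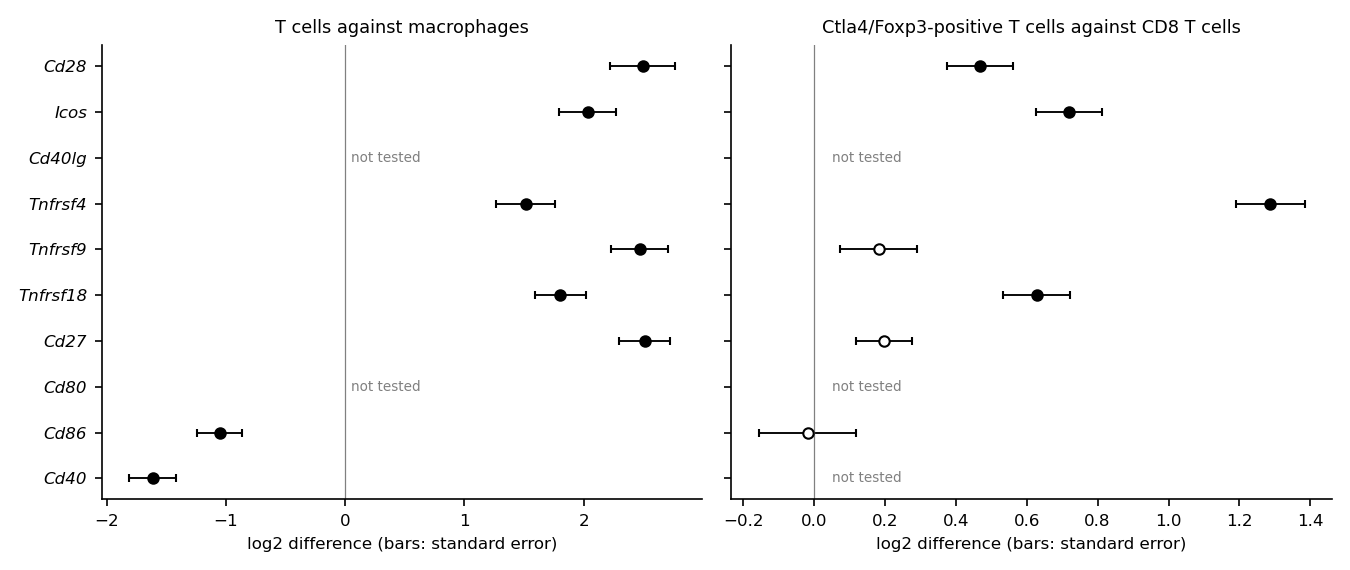
Log2 difference of each member between gates within libraries, T cells against macrophages (left, 8 libraries) and Ctla4/Foxp3-positive T cells against CD8 T cells (right, 7 libraries), with standard errors. Filled points passed the test at an adjusted p under 0.05. Tnfrsf4 has the smallest difference of the 6 receptors on the left, 1.51, and the largest on the right, 1.29.

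Since macrophage RNA was found in T cells and T cell RNA in macrophages, each member was set beside a gene of the other gate. In the library labelled heart TIL the T cells held 0.546 (0.409 to 0.742) of the macrophage level of Cd86 and 0.449 (0.329 to 0.625) of that of Cd40, beside 0.464 (0.428 to 0.503) for C1qa, a complement gene of macrophages. In liver PC these ratios were 0.265 (0.220 to 0.319) for Cd86, 0.189 (0.154 to 0.232) for Cd40 and 0.233 (0.223 to 0.243) for C1qa. The intervals of Cd86 and C1qa overlapped in both libraries, so Cd86 UMIs in the T gates were no more frequent, relative to macrophages, than those of C1qa within counting error. The same ratio for Cd86 was 1.30 (0.661 to 2.62) in liver PBMC, where C1qa had 3 UMIs in T cells and 11 in macrophages. Conversely, macrophages of the library labelled liver TIL held 0.585 (0.383 to 0.862) of the T cell level of Tnfrsf4, beside 0.271 (0.225 to 0.323) for Trac, the constant region of the T cell receptor alpha chain. The corresponding values were 0.492 (0.293 to 0.777) and 0.289 (0.243 to 0.342) in the library labelled heart TIL and 0.167 (0.101 to 0.260) and 0.122 (0.106 to 0.140) in liver PC. Tnfrsf4 thus lay above the Trac ratio in the library labelled liver TIL beyond counting error, on 28 macrophage UMIs, and overlapped it in the other 2. In heart PBMC, Tnfrsf18 lay above Trac in the same way, at 0.640 (0.369 to 1.06) beside 0.166 (0.108 to 0.244), on 19 macrophage UMIs. Both were picked out of all receptors and libraries compared, and no other receptor interval lay apart from that of Trac. Those of Cd28, Icos, Tnfrsf9 and Cd27 overlapped it in every library.

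**Figure D3:**
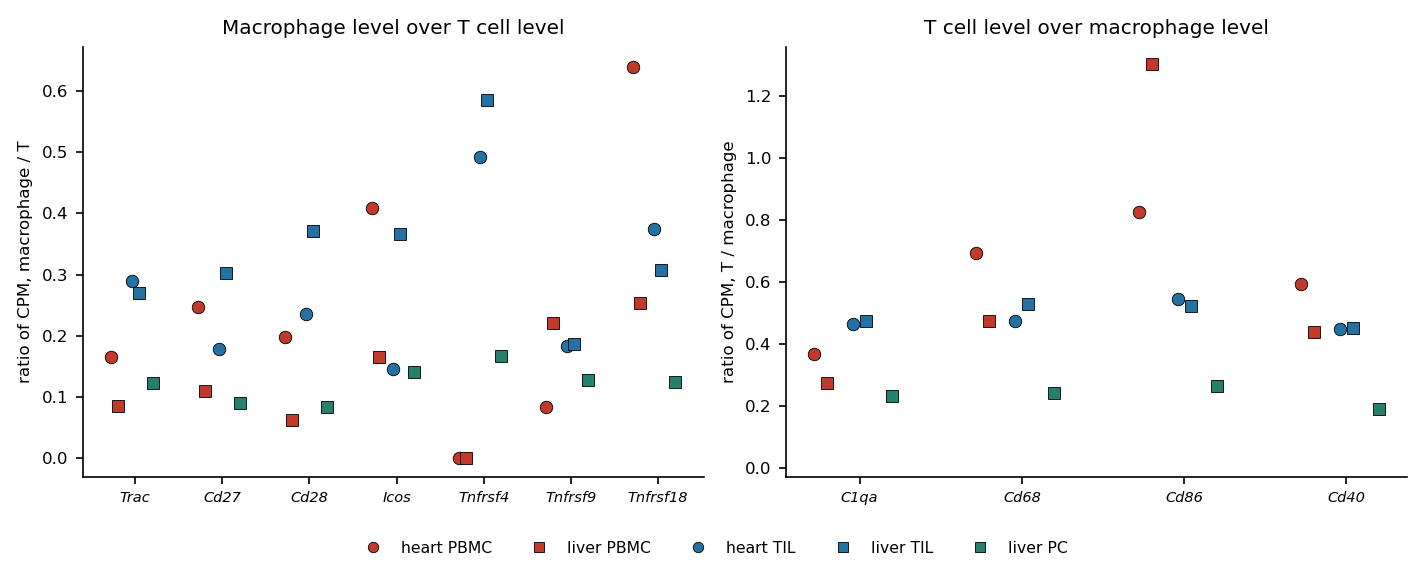
Ratio of CPM between gates within the heart and liver libraries, macrophages over T cells for Trac and the T cell receptors (left) and T cells over macrophages for C1qa, Cd68, Cd86 and Cd40 (right). Kidney libraries, with 23 to 37 macrophages each, are left out, and in the TIL and PC libraries Cd86 lies near C1qa, at 0.265 beside 0.233 in liver PC.

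Ctla4/Foxp3-positive T cells were compared with CD8 T cells to see which receptors differ within T cells. The gate was not one of regulatory T cells alone: 2018 of its 2787 cells had a Cd8 UMI with no Cd4 UMI and none of Foxp3, and 109 had a UMI of Foxp3. Summed markers of regulatory T cells not used by the gate (Il2ra, Ikzf2, Ikzf4 and Tnfrsf1b) stood at 96.2 to 144 CPM in the 7 libraries compared, against 37.0 to 98.5 CPM in CD8 T cells and 74.1 to 217 CPM in the macrophages of all 8, a range that overlaps both. Median depth was also higher in the Ctla4/Foxp3-positive cells in 6 of the 7 libraries, for example 1125 against 900 UMIs in heart PBMC, and its part in the result was not tested. The unused markers of the T gate (Trac, Trbc1, Trbc2, Lck and Thy1 summed) were higher in these cells as well, except in kidney TIL. They stood at 5917 against 3871 CPM in heart PBMC, 7316 against 6463 CPM in liver PC and 6309 against 6522 CPM in kidney TIL. S100a8 and S100a9 made up less of the UMIs in each library compared, 6.75% against 11% in heart PBMC. The part of both in the result was not tested. Kidney PC, with 17 Ctla4/Foxp3-positive cells, was left out.

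4 of the 7 members tested were higher in Ctla4/Foxp3-positive T cells (Tnfrsf4, Icos, Tnfrsf18 and Cd28) and 0 were lower, while 1.33% of all 4577 genes were higher and 7.25% lower, or 8.59% in either direction. The median log2 difference of the members tested was 0.47, beside -0.01 over all genes. Cd40, Cd80 and Cd40lg had too few UMIs to be tested. Of these, Cd40 lay lower in the Ctla4/Foxp3-positive cells in 6 of 7 libraries and higher in 0. It had 68 against 363 UMIs, with medians of 0 and 17.9 CPM. Tnfrsf4, a receptor induced on activated T cells, stood at 10.3, 29.2 and 31.7 CPM in the Ctla4/Foxp3-positive cells of heart, liver and kidney PBMC, against 7.84, 16.9 and 0 CPM in CD8 T cells. In the libraries labelled heart, liver and kidney TIL it stood at 140, 190 and 287 CPM against 66.1, 65.3 and 102 CPM, and in liver PC at 117 against 45.4 CPM. It was higher in 7 of 7 libraries, with a log2 difference of 1.29 and a standard error of 0.10 (adjusted p = 1.15e-13).

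Icos, Tnfrsf18 and Cd28 were each higher in 7 of 7 libraries as well, by smaller amounts. The Ctla4/Foxp3-positive gate, unlike the CD8 gate, also held cells with a Cd4 UMI or without a Cd8 UMI. The part of this mix in these differences was not tested. Icos had medians of 119 and 53.8 CPM and a log2 difference of 0.72 with a standard error of 0.09 (adjusted p = 2.02e-07). Tnfrsf18 had medians of 154 and 111 CPM and a log2 difference of 0.63 with a standard error of 0.09 (adjusted p = 2.75e-06). Cd28 had medians of 119 and 62.2 CPM and a log2 difference of 0.47 with a standard error of 0.09 (adjusted p = 0.000254), which did not pass without liver PC (log2 0.51, adjusted p = 0.062). The members that did not pass were Cd27, with a log2 difference of 0.20 and a standard error of 0.08 (adjusted p = 0.14) though its level was higher in 7 of 7 libraries, Tnfrsf9, at 0.18 with 0.11 (adjusted p = 0.43), and Cd86, at -0.02 with 0.14 (adjusted p = 0.97). Without the libraries labelled heart TIL and liver TIL, Icos (log2 0.74), Tnfrsf18 (0.54) and Cd28 (0.45) passed, and Tnfrsf4 had too few UMIs in the remaining libraries to be tested.

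Within this gate, Ctla4-positive cells without a Foxp3 UMI were split by their Cd8 and Cd4 UMIs, and Tnfrsf4 levels were compared. Those given as having a Cd8 UMI had none of Cd4. Those with a Cd4 UMI and none of Cd8 were left out. In liver PC, Tnfrsf4 stood at 45.4 (40.1 to 51.2) CPM in CD8 T cells without Ctla4, 68.7 (59.1 to 79.5) CPM in Ctla4-positive cells with a Cd8 UMI and 286 (234 to 347) CPM in Ctla4-positive cells with neither or both of Cd4 and Cd8. In the library labelled heart TIL the same values were 66.1 (57.7 to 75.5), 88.2 (63.0 to 120) and 282 (203 to 381) CPM. In the library labelled liver TIL they were 65.3 (55.2 to 76.6), 145 (103 to 199) and 217 (134 to 332) CPM. The Tnfrsf4 level of Ctla4-positive cells with neither or both of Cd4 and Cd8 thus lay above that of CD8 T cells in all 3 libraries beyond counting error. It lay above that of Ctla4-positive CD8 cells in liver PC and in the library labelled heart TIL, and the intervals overlapped in that labelled liver TIL. The level of Ctla4-positive CD8 cells lay above that of CD8 T cells in liver PC and in the library labelled liver TIL. In the library labelled heart TIL these intervals overlapped. In the 71 Foxp3-positive cells of liver PC, Tnfrsf4 stood at 409 (57 UMIs) and Tnfrsf18 at 359 (50 UMIs) CPM. For Cd27 no such order was seen in liver PC, where it stood at 279, 311 and 267 CPM in the same 3 sets.

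Shares of cells with a UMI depend on depth, so cells of liver PC were thinned to 500 UMIs each. A Tnfrsf4 UMI was then found in 6.02% (4.85 to 7.36) of Ctla4/Foxp3-positive T cells and 2.55% (2.05 to 3.14) of CD8 T cells, and unthinned in 15.5% and 6.86%. A Cd27 UMI was found in 13.1% (12.0 to 14.3) of thinned CD8 T cells and in 0.966% (0.418 to 1.89) of thinned macrophages, which should lack the gene and had a median of 1718 UMIs, against 1402 UMIs in CD8 T cells. A Tnfrsf4 UMI was found in 0.845% (0.341 to 1.73) of the same macrophages, below both T cell shares of Tnfrsf4 beyond counting error.

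CD4 T cells numbered at least 20 in 3 libraries, with 22, 31 and 53 cells in those labelled heart TIL and liver TIL and in liver PC. Tnfrsf4 stood at 249, 133 and 286 CPM there, against 66.1, 65.3 and 45.4 CPM in CD8 T cells, on 33 UMIs in CD4 T cells. Tnfrsf18 stood at 398, 398 and 381 CPM, against 123, 125 and 101 CPM. Both were higher in 3 of 3 libraries, with log2 differences of 1.83 and a standard error of 0.38 for Tnfrsf4 (adjusted p = 0.0012) and 1.47 with 0.31 for Tnfrsf18 (adjusted p = 0.0013), while 0.122% of 7388 genes were called higher and 0.257% lower, or 0.379% in either direction. These 2 calls of 8 members tested were lost without liver PC (adjusted p = 0.94 and 0.24), and that of Tnfrsf18 also without the library labelled liver TIL (adjusted p = 0.67). Without both TIL libraries a single library remained and no test could be made. Tnfrsf9, which is known for its role in cytotoxic T cells, lay lower in CD4 T cells in 3 of 3 libraries, on 8 UMIs, with a log2 difference of -1.21 and a standard error of 0.52 (adjusted p = 0.80).

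Against CD4 T cells, 0 of 6 members tested differed in the Ctla4/Foxp3-positive gate by edgeR, with 3 of 6 at an unadjusted p under 0.05 and 0 by DESeq2. Of all 3275 genes, 0.336% were called higher and 0.153% lower, or 0.489% in either direction. The 3 were Tnfrsf18 (log2 difference -1.03 with a standard error of 0.25, adjusted p = 0.073), Tnfrsf9 (1.30 with 0.46, adjusted p = 0.44) and Tnfrsf4 (-0.79 with 0.33, adjusted p = 0.67). Tnfrsf18 was lower in the Ctla4/Foxp3-positive gate in 3 of 3 libraries and Tnfrsf9 higher in 3 of 3. The CD4 and Ctla4/Foxp3-positive comparisons share their CD8 and CD4 sums and are not independent.

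B cells reached 20 cells in heart PBMC (183), liver PBMC (291) and liver PC (22). Those of liver PC carried 21321 CPM of Jchain, a plasma cell gene, and 205 CPM of Ms4a1. Cd40 stood at 39.6, 74.1 and 51.3 CPM in B cells of the 3 libraries, on 6, 17 and 2 UMIs, against 14.5, 30.9 and 106 CPM in macrophages. It was thus higher in the B cells of both blood libraries and lower in those of liver PC. Of 2 members tested against macrophages, 0 were called by edgeR, 0 at an unadjusted p under 0.05 and 0 by DESeq2, among 2.57% of 4245 genes higher and 1.41% lower, or 3.98% in either direction. For Cd40 the log2 difference was 0.80 with a standard error of 0.47 (adjusted p = 0.43), and 1.33 (adjusted p = 0.033) without liver PC, so that library decided the call.

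Against T cells, B cells were higher in Cd40 and lower in Cd27, 2 of 6 members tested, where 2.41% of 4732 genes were higher and 2.01% lower, or 4.42% in either direction. The log2 difference of Cd40 was 2.19 with a standard error of 0.46 (adjusted p = 0.0010), and did not pass without heart PBMC (2.17, adjusted p = 0.061) or without liver PBMC (1.71, adjusted p = 0.61). Cd27 stood at 19.8, 17.4 and 51.3 CPM in B cells against 87.9, 122 and 270 CPM in T cells, with a log2 difference of -2.47 and a standard error of 0.41 (adjusted p = 3.08e-05). Cd86 stood at 19.8, 21.8 and 76.9 CPM in B cells, on 3, 5 and 3 UMIs, and did not pass against T cells (log2 0.11 with a standard error of 0.53, adjusted p = 0.96).

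Cd80 and Cd40lg were near the limit of detection. Over T cells, B cells and macrophages of all libraries Cd80, the other ligand of Cd28, had 113 UMIs, of which 95 lay in T cells and 18 in macrophages, and its macrophage level ranged from 0 to 7.73 CPM. Cd40lg had 20 UMIs, 19 of them in T cells, and 10 of those in liver PC. CD4 T cells, the known source of Cd40lg, gave 1 Cd40lg UMI in all. In CD8 T cells of liver PBMC, Cd80 had 0 UMIs, with an interval of 0 to 15.6 CPM, and 3 counts there correspond to 12.7 CPM.

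Tissue and blood were compared organ by organ, as ratios of TIL to PBMC with a pseudocount of 1 CPM, with no test. In T cells as a whole 8, 6 and 5 members were at least 2-fold higher in TIL than in PBMC of heart, liver and kidney by label, and 0 were at least 2-fold lower, where 36.5%, 23% and 14.7% of all genes were at least 2-fold higher and 8.64%, 10% and 13.4% lower. In the same T cells Trac had ratios of 3.35, 2.30 and 1.36 in heart, liver and kidney by label. In heart, Cd28 (2.25), Icos (2.98), Tnfrsf18 (2.27), Cd27 (2.03) and Cd86 (2.94) had lower ratios than Trac. Tnfrsf4 (9.99), Tnfrsf9 (3.42) and Cd40 (4.62) had higher ones there, as did all members counted in liver and kidney. The heart count was 4 with strict gates, and the kidney count was 3 with strict gates and 2 with a floor of 1000 UMIs. The same was done in CD8 T cells, a choice made after seeing the data, where S100a8 and S100a9 still made up 11%, 5.44% and 2.65% of the UMIs in heart, liver and kidney PBMC, against 14.3%, 8.84% and 2.81% in all T cells. There 4 of 8 tested members were at least 2-fold higher in the library labelled heart TIL, 6 of 8 in that labelled liver TIL and 5 of 8 in kidney TIL (4 with members at 0 in blood set to their bound), against 33%, 27.2% and 26.4% of all genes, and 0 were lower, against 6.96%, 6.41% and 8.33% of all genes. The ligand-side genes Cd86 and Cd40 were among those counted in heart and liver, and Cd40 in kidney. In heart the receptors counted were Icos and Tnfrsf4 alone, while Cd28, Tnfrsf9, Tnfrsf18 and Cd27 were tested and not called. Cd86 and Cd40 were also in the counts for T cells as a whole in all 3 organs. The median log2 ratio of the members was 1.04, 1.74 and 1.59, and 0.85 in kidney with members at 0 set to their bound, beside 0.62, 0.40 and 0.44 over all genes.

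Tnfrsf4, Icos and Cd40 were counted as higher in CD8 T cells of tissue in all 3 organs, Cd40 on 3, 1 and 0 blood UMIs and in kidney by at least 1.13-fold. C1qa moved with Cd40 in the same CD8 T cells, with 2008, 2150 and 235 UMIs in TIL of heart, liver and kidney by label and 0, 0 and 1 in PBMC, and its part in the Cd40 and Cd86 ratios was not tested. Tnfrsf4 stood at 66.1 CPM in the library labelled heart TIL and 7.84 CPM in heart PBMC, a ratio of 7.59 (3.25 to 31.2), and at 65.3 and 16.9 CPM in liver, a ratio of 3.70 (1.48 to 14.3). In kidney it stood at 102 CPM in TIL on 74 UMIs and at 0 UMIs in PBMC, at least 6.44-fold higher with 3 counts in PBMC as the floor. Its blood levels thus lay below its tissue levels in all 3 organs, on 4, 4 and 0 UMIs. Icos stood at 53.8 and 19.6 CPM in heart, a ratio of 2.66 (1.46 to 5.82), at 85.4 and 12.7 CPM in liver, a ratio of 6.32 (2.27 to 32.9) on 3 blood UMIs, and at 187 and 47.5 CPM in kidney, a ratio of 3.88 (2.02 to 8.81). With the labels of the heart and liver TIL libraries exchanged, the Icos ratio was 4.19 (2.32 to 9.23) in heart and 4.005 (1.43 to 20.8) in liver.

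For Tnfrsf9 the ratio was 1.86 (1.23 to 3.01) in heart, 8.69 (3.54 to 33.7) in liver and 3.57 (1.61 to 10.2) in kidney. Exchanging the same labels gave a Tnfrsf9 ratio of 3.38 (2.25 to 5.48) in heart and 4.79 (1.94 to 18.5) in liver, on 23 and 4 blood UMIs, and these intervals overlap. For Tnfrsf18 it was 1.69 (1.21 to 2.45), 2.65 (1.48 to 5.44) and 1.12 (0.69 to 1.89), and these intervals overlap. In this CD8 gate, Cd27 was called in none of the organs and Cd28 in kidney alone. Cd27 had ratios of 1.34 (1.05 to 1.73), 0.75 (0.57 to 1.01) and 1.11 (0.76 to 1.67), with levels of 145 to 279 CPM in CD8 T cells of all 8 libraries. Cd28 had ratios of 1.48 (0.89 to 2.68), 0.82 (0.50 to 1.42) and 2.54 (1.38 to 5.29). In T cells as a whole both were called in heart alone, Cd28 at 2.25 (1.60 to 3.46) and Cd27 at 2.03 (1.73 to 2.44). Cd28 in kidney was 1.56 (1.15 to 2.18) there. The CD8 gate left out 155 Ctla4-positive CD8 cells of kidney PBMC beside 203 kept, and 80 beside 921 in kidney TIL. The part of these cells in the ratios was not tested.

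Trac itself differed between the CD8 T cells of tissue and blood, at 1087 and 504 CPM in heart, 864 and 617 CPM in liver and 791 and 591 CPM in kidney. Counted per 100 Trac UMIs, also chosen after seeing the data, the members at least 2-fold higher in TIL were 2, 5 and 4, Cd40 in kidney on 0 blood UMIs among them, where 19.4%, 24.7% and 19.4% of all genes were, and 0 were lower, where 30.8%, 15.6% and 15.3% were. For Cd40 in kidney the values were 2.26 (1.20 to 3.90) in TIL and 0 (0 to 3.35) in blood, and these intervals overlap. Tnfrsf4 per 100 Trac UMIs was 1.56 in blood and 6.09 in TIL for heart, 2.74 and 7.56 for liver, and 0 and 12.9 for kidney, by label. Icos was 3.89 and 4.95 in heart, 2.05 and 9.89 in liver and 8.04 and 23.7 in kidney, so the heart ratio of Icos is under 2-fold on this scale and that of Tnfrsf4 is not.

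**Figure D4:**
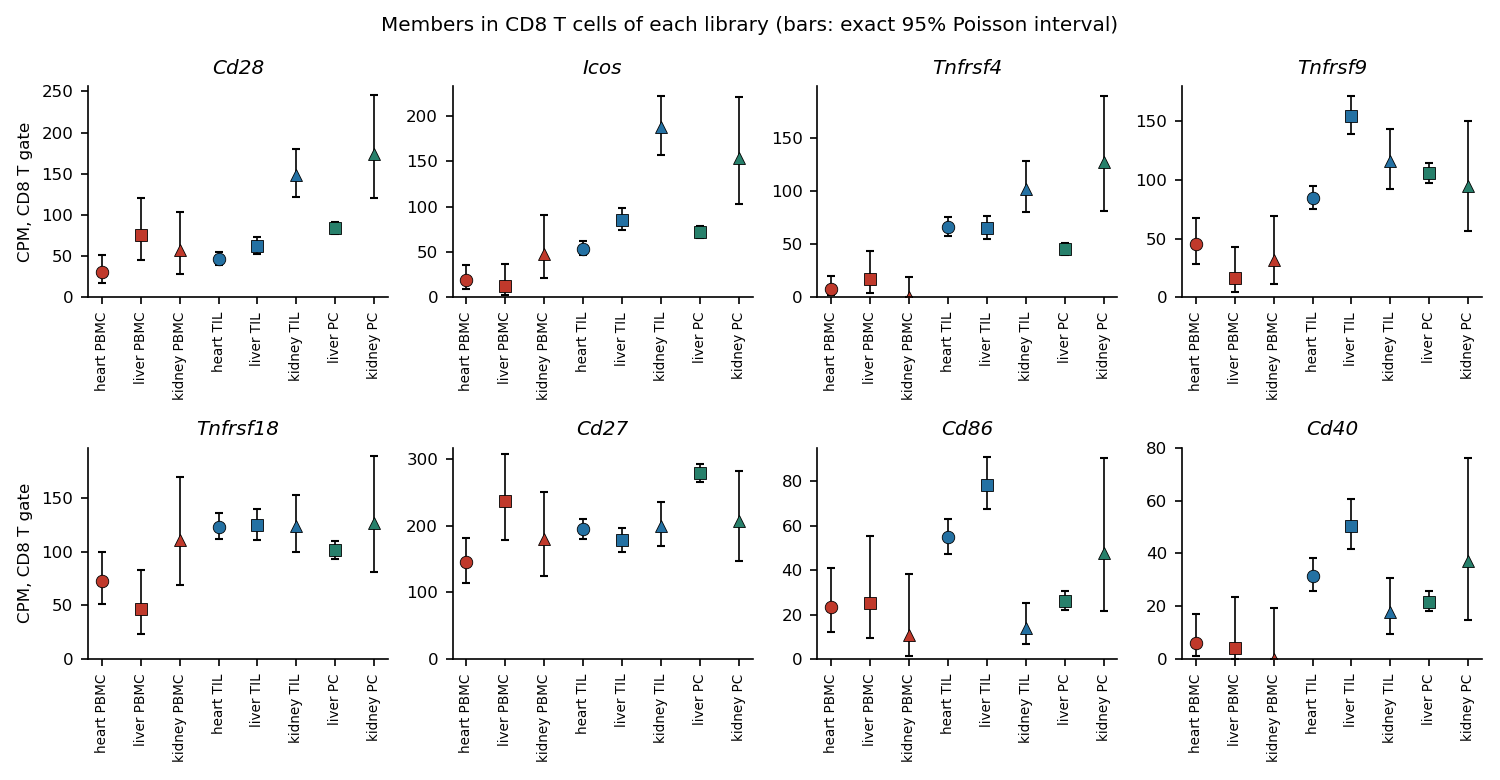
Level of 8 members in the CD8 T cells of each library (CPM, linear axis from 0), with exact 95% Poisson intervals that cover counting error only. Tnfrsf4 lies at 0 to 16.9 CPM in the 3 PBMC libraries and at 45.4 to 127 CPM in the 5 tissue libraries, Cd28, Icos and Tnfrsf4 are highest in kidney TIL and kidney PC, and Cd27 lies between 145 and 279 CPM throughout.

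In macrophages, Cd86 and Cd40 were at least 2-fold higher in TIL than in PBMC of heart and liver by label, while Cd80 had too few UMIs for a ratio. Cd86 stood at 108 CPM in the library labelled heart TIL and 23.5 CPM in heart PBMC, a ratio of 4.46 (2.48 to 9.20), and at 166 and 22.9 CPM in liver, a ratio of 6.98 (4.32 to 12.9). Cd40 stood at 96.1 and 14.5 CPM in heart, a ratio of 6.29 (3.12 to 16.3), and at 136 and 30.9 CPM in liver, a ratio of 4.30 (2.76 to 7.31). With both TIL labels exchanged, the Cd86 ratio was 6.80 (3.95 to 13.7) in heart and 4.57 (2.70 to 8.70) in liver. C1qa moved with them, at 1438 and 10.8 CPM in heart and 2295 and 14.8 CPM in liver, and Ly6c2, a gene of blood monocytes, moved the other way, at 879 and 2950 CPM in heart and 903 and 3022 CPM in liver, and a change within macrophages and another mix of Csf1r-positive cells cannot be told apart. Neutrophil genes moved as well: S100a8 and S100a9 made up 14.8% and 7.34% of the UMIs of macrophages in heart and liver PBMC, against 0.553% and 0.426% in the libraries labelled heart TIL and liver TIL, and the neutrophil gene Retnlg stood at 28516 and 5578 CPM against 531 and 169 CPM. Their part in the ratios was not tested. In all, 3 of 5 members tested in heart and 8 of 8 in liver were at least 2-fold higher in TIL, where 36.9% and 15.6% of all genes were, and 0 were lower, where 14% and 16.7% were. The counts higher were 7 in heart and 5 in liver with both TIL labels exchanged, and in liver 5 with a floor of 1000 UMIs and 2 with strict gates. Trac was also higher in these macrophage gates, with ratios of 5.77 (3.87 to 9.22) and 7.12 (4.57 to 12.4), beside the receptors of T cells in that count. In kidney 0 members had enough UMIs for this ratio.

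Among organs, Cd28, Icos and Tnfrsf4 were highest in CD8 T cells of the kidney tissue libraries, a comparison added after the values were seen and not tested. Cd28 stood at 149 (122 to 180) CPM in kidney TIL against 46.9 (39.8 to 54.9) and 62.2 (52.4 to 73.3) CPM in the libraries labelled heart TIL and liver TIL. Icos stood at 187 (157 to 222) CPM in kidney TIL against 53.8 (46.2 to 62.3) and 85.4 (73.8 to 98.3) CPM. The same order held in PCs, with Cd28 at 175 (120 to 245) CPM in kidney and 84.1 (76.8 to 91.9) CPM in liver, and Icos at 153 (103 to 220) and 71.7 (65.0 to 78.9) CPM. In the order of all 8 libraries the 2 kidney tissue libraries were the highest for both genes, with intervals that overlapped each other and not that of the next library. Tnfrsf4 had the same 2 libraries on top, at 102 (80.1 to 128) CPM in kidney TIL and 127 (81.4 to 189) CPM in kidney PC, and the next, the library labelled heart TIL, at 66.1 (57.7 to 75.5) CPM. Per 100 Trac UMIs, Cd28 was 18.8 in kidney TIL and 26.0 in kidney PC, against 4.32, 7.20 and 8.12 in the libraries labelled heart TIL and liver TIL and in liver PC. Proximal tubule genes stood at 520 and 698 CPM in CD8 T cells of the 2 kidney libraries and at or near 0 in the others. Erythroid genes stood at 1231 and 12612 CPM there, against 305, 36471 and 2.41 CPM in the libraries labelled heart TIL and liver TIL and in liver PC. The part of both in the result was not tested.

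Counted at 2-fold, Tnfrsf4 was not among the members higher in kidney TIL. Of 9 tested members, Cd28 and Icos were at least 2-fold higher in kidney TIL than in the library labelled heart TIL, where 9.79% of all genes were, and 2 were at least 2-fold lower, Cd86 and Cd80, the latter on 1 and 13 UMIs with an interval of 0.0083 to 2.35 that holds 1, where 23.9% of all genes were. Against the library labelled liver TIL, Cd28 and Icos were higher (10.4% of genes) and Cd86 and Cd40 lower (23.6% of genes). Tnfrsf18 stood at 123, 125 and 124 CPM in CD8 T cells of the heart, liver and kidney TIL libraries, within counting error of each other. Cd86 stood at 54.7, 78.4 and 13.8 CPM, and C1qa in the same cells at 604, 942 and 324 CPM. In PCs, Cd28, Icos and Tnfrsf4 were at least 2-fold higher in kidney than in liver (4.70% of genes), 3 of 6 members tested, and 0 were lower (45.6% of genes). C1qa was higher in kidney PC as well, at 989 against 484 CPM. The CD8 gate left out Ctla4-positive cells, 1118 CD8 ones in liver PC beside 3368 kept, and 9 beside 296 in kidney PC. In T cells as a whole, Cd28, Icos and Tnfrsf4 had 40, 51 and 36 UMIs of 303765 in kidney PC. In liver PC they had 962, 889 and 749 UMIs of 10513685. Relative to these totals all of them were higher in kidney PC, but none by 2-fold. The part of the cells left out in the PC values and their order was not tested. Kidney cells were shallower, with medians of 704 UMIs in CD8 T cells of TIL and 592 of PC, against 788 to 1402 UMIs in the heart and liver tissue libraries, and its part in the result was not tested.

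Other pairs of libraries were compared in the same way. In CD8 T cells of the library labelled liver TIL against that labelled heart TIL, 0 of 9 members were at least 2-fold higher (5.11% of genes) and 1 was lower (5.07%), Cd80, on 3 and 13 UMIs. In liver PC against the library labelled heart TIL, 0 of 9 were higher (6.75%) and Cd86 was lower (2.33%), with a ratio of 0.49 (0.38 to 0.60). In liver PC against the library labelled liver TIL, Cd80 was higher (8.92%), on 27 and 3 UMIs, and Cd86 and Cd40 were lower (4.89%), with ratios of 0.34 (0.27 to 0.42) and 0.44 (0.33 to 0.56). C1qa in the same cells stood at 484 CPM in liver PC against 604 and 942 CPM. Between blood libraries, 0 of 5 members were higher (18.5%) and Cd86 was lower (23.3%) in kidney than in heart, on 2 and 12 UMIs, and Tnfrsf18 was higher (10.6%) and 0 of 3 lower (16.7%) in kidney than in liver, with a ratio of 2.36 (1.10 to 5.48).

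Partner genes on the ligand side were sparse. Cd70, the ligand of Cd27, Tnfsf4, the ligand of Tnfrsf4, and Tnfsf18, the ligand of Tnfrsf18, had 0 to 3 UMIs in the T cells, B cells or macrophages of any library. Tnfsf9, the ligand of Tnfrsf9, reached 6.72 to 19.9 CPM in the macrophages of the heart and liver libraries and 6.77 to 17.8 CPM in their T cells. Icosl stood at 59.5 and 39.2 CPM in B cells of heart and liver PBMC, on 9 UMIs each, and at 28.9 and 17.5 CPM in their macrophages, and did not pass the test there (log2 1.15 with a standard error of 0.44, adjusted p = 0.18). Ctla4 was high in T cells of kidney PBMC, at 754 CPM, against 32.5 to 207 CPM in the T cells of the other libraries, and 227 of the 616 T cells there fell in the Ctla4/Foxp3-positive gate. Cd274, which encodes the inhibitory ligand PD-L1, was lower in T cells than in macrophages (log2 -1.03 with a standard error of 0.19, adjusted p = 1.38e-05).

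Of the downstream genes, Prkcq, the protein kinase C isoform that couples Cd28 to NF-kappaB, was higher in T cells, with a log2 difference of 2.45 and a standard error of 0.23 between T cells and macrophages (adjusted p = 3.57e-14). Among 7 tested adapters and kinases, Prkcq and Traf1 (log2 0.94, adjusted p = 3.61e-05) were higher in T cells and Grb2 (log2 -0.68, adjusted p = 0.0010) was lower. Of 6 tested genes of NF-kappaB and its targets, 0 were higher and 2 were lower in T cells, Nfkbia (log2 -0.55, adjusted p = 0.0043), an inhibitor of NF-kappaB, and Relb (log2 -0.54, adjusted p = 0.019). All 3 other costimulation genes tested, Cd2, Cd48 and Slamf6, were higher in T cells. The median log2 differences of these 3 lists were 0.03, -0.40 and 0.82, beside 0.12 over all genes, of which 21.1% were called higher and 15.8% lower.

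In Ctla4/Foxp3-positive against CD8 T cells, Il2ra, the interleukin 2 receptor alpha chain, was higher (log2 0.64 with a standard error of 0.18, adjusted p = 0.017) and Nfkbia lower (log2 -0.29 with 0.08, adjusted p = 0.0082), 2 of 6 genes tested in that list. Cd2 was higher (log2 0.22 with 0.07, adjusted p = 0.034), 1 of 4 other costimulation genes, and 0 of 7 adapters and kinases were called by edgeR, where 1.33% of all genes were higher and 7.25% lower. In B cells, Cd2 was higher than in macrophages (log2 1.62 with 0.30, adjusted p = 0.0073), and Prkcq (log2 -3.09), Ctla4 (log2 -1.88) and Cd48 (log2 -1.28) were lower than in T cells.

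Tnfrsf9 was also found in a gate of NK cells. In these cells, gated on Ncr1, Klrb1c and Klra8 among cells in no other gate, it stood at 175 (75.5 to 344), 137 (68.3 to 245) and 145 (74.8 to 253) CPM in heart, liver and kidney PBMC, on 8, 11 and 12 UMIs. CD8 T cells of the same libraries held 45.1 (28.6 to 67.7), 16.9 (4.61 to 43.3) and 31.7 (11.6 to 69.0) CPM. Tnfrsf9 thus lay higher in NK cells in all 3 blood libraries beyond counting error. The NK gate held T cell markers too, summed to 1901, 1716 and 2329 CPM in heart, liver and kidney PBMC, against 3871, 4532 and 5719 CPM in CD8 T cells, and their part in the result was not tested. In liver PC the NK value was 224 (112 to 400) CPM on 32 cells, against 106 (97.5 to 114) CPM in CD8 T cells, and these intervals overlapped slightly.

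The genes whose levels were most like those of the members were taken over 22 sums of library and gate that share depth and composition, among 6331 genes, as a description. Cd27 was nearest to Lck (r = 0.979), Thy1 and Cd3g, all general T cell genes, and Cd28 to Il2rb (r = 0.949), Lck and Ubash3a. Tnfrsf9 was near Sept7 and Ifng (both r = 0.932), Tnfrsf18 near Pkp3 (r = 0.952) and Il2rb, and Icos near Oxsr1 (r = 0.928). Tnfrsf4 was nearest to 2610524H06Rik (r = 0.895), Hist1h1b and Smyd2. On the ligand side, Cd86 was near Ecm1 (r = 0.910) and Ms4a7, and Cd40 near Fgd2 (r = 0.940), Ctsh and H2-Aa, genes of macrophages and antigen presentation. Cd80, near Ctnnbl1 (r = 0.778), and Cd40lg, near Phax (r = 0.809), rest on 90 and 15 UMIs.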

How the data were processed

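Single-cell libraries of allografts and blood were read as UMI count tables, 1 per library. Per the paper, the authors mapped the reads against GRCm38 by means of STAR, removed reads that aligned to several places and, for each gene, collapsed UMIs at an edit distance of 1. The deposited tables held raw UMI counts per gene for 10000 barcodes a library. The GENCODE release was not given in the sources used here. Library totals were 3418722 to 19171264 UMIs, and the count of cells in a gate limits the precision of its levels.

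Cells of at least 500 UMIs were gated, UMIs were summed by gate and library, and gates were compared within libraries with edgeR 4.0.16 in R 4.3.3 (quasi-likelihood test, TMM, filterByExpr, library as a block, sums of at least 20 cells, Benjamini-Hochberg adjustment over all genes tested, threshold 0.05), so all adjusted p-values are from edgeR unless DESeq2 1.42.0 is named. Standard errors are the log2 difference over the square root of the F statistic. Libraries served as replicates although those of an organ may share animals, so p-values measure only the spread between these libraries and may be too small. Conditions, with 1 library each, were compared as ratios of CPM with a pseudocount of 1 CPM, called at 2-fold with at least 10 UMIs in the higher sum. Intervals printed beside ratios are exact conditional binomial intervals without the pseudocount. The test was checked on simulated counts: of genes changed by a log2 of 1, 78.7% were recovered in T cells against macrophages (5334 genes) and 79.1% in Ctla4/Foxp3-positive against CD8 T cells (4429 genes), and 100% of those changed by a log2 of 2. The simulated libraries differed in depth only and all genes had the same dispersion, so real recovery may be lower. The other comparisons, with CD4 T cells or B cells, were not simulated.

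The members and gene lists were chosen with earlier results of these data known. Named genes are all members, the partners and up to 4 genes a list with the smallest adjusted p in a comparison. Alternatives were a UMI floor of 1000, stricter gates, cells of several gates kept, no filter, DESeq2 or its size factors, no library block, each library left out, and a mitochondrial limit of 10%. Python 3.11.15 with numpy 2.4.6, scipy 1.17.1, pandas 2.3.3 and matplotlib 3.10.9 was used. 1 gene of the likeness lists is not reported here.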

Additional observations from a re-analysis of the deposited data

Results flagged for a closer look

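Barcodes under 500 UMIs, which no comparison used, held 5988 UMIs of the 10 members over all libraries. Most lay in the kidney libraries, with 2497 in kidney PC, 2157 in kidney TIL and 781 in kidney PBMC, against 398, 1296 and 487 in the cells of at least 500 UMIs there. In the library labelled heart TIL the barcodes under the floor held 98 member UMIs and the cells 5321, and liver PC had 0 barcodes under the floor. For kidney the levels above therefore describe the deeper barcodes only. The count is given because no comparison used these barcodes, and whether they are cells or free RNA was not tested.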

How the results depend on the processing

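Of 416 values of single members under the alternatives, 376 kept their direction and side of the threshold, 18 lost the call, 4 gained it and 18 changed sign. The library block decided most calls. Without the library block, T cells against macrophages had 0 members lower in place of 2 and 5 higher in place of 6, Tnfrsf4 being lost, and 337 genes called in place of 2020, and the counts of members called were 0 for Ctla4/Foxp3-positive against CD8 T cells, 0 for CD4 against CD8 T cells, and 0 higher and 0 lower for B cells against T cells. No paired analysis by replicate number was possible because each condition has 1 library and the labels number none, and the block pairs 2 gates of the same library.

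Leaving out 1 library at a time gave 0 to 1 members lower in Ctla4/Foxp3-positive against CD8 T cells, 0 to 2 higher in CD4 against CD8 T cells, 0 to 1 higher in B cells against macrophages and 0 to 1 higher in B cells against T cells. Members higher in B cells against T cells were also 0 with a floor of 1000 UMIs and with cells of several gates kept, and with no filter 1 member was lower in Ctla4/Foxp3-positive against CD8 T cells. The signs that changed belong to values that did not pass the test. Cd86 in Ctla4/Foxp3-positive against CD8 T cells became 0.021 without the block, and ranged from -0.036 to 0.042 with 1 library left out. Against CD4 T cells, Cd28 became -0.086 with strict gates, and Icos became 0.086 with no filter and ranged from -0.44 to 0.14 with 1 library left out. Cd28 in CD4 against CD8 T cells became 0.36 with strict gates, 0.17 with cells of several gates kept, 0.16 with DESeq2 size factors, 0.081 without the block, and ranged from -1.98 to 0.17 with 1 library left out. Tnfrsf18 in B cells against macrophages became -0.22 with no filter, -0.016 with DESeq2 size factors, -0.030 without liver PBMC and -0.072 without liver PC. Cd86 in B cells against T cells became -0.27 with cells of several gates kept, -0.091 with no filter, and ranged from -0.25 to 0.44 with 1 library left out. The cause of these changes was not tested.

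For tissue against blood, members at least 2-fold higher in T cells of heart were 4 with strict gates, 4 in CD8 T cells and 2 per Trac UMI, in place of 8, and in kidney 2 with a floor of 1000 UMIs and 3 with strict gates, in place of 5. In macrophages of liver they were 5 with that floor and 2 with strict gates, in place of 8, and with the labels of the heart and liver TIL libraries exchanged 7 in heart, in place of 3, and 5 in liver. Unthinned shares were 34.6% and 4.59% for Cd27 in CD8 T cells and macrophages of liver PC, and 15.5% and 6.86% for Tnfrsf4 in Ctla4/Foxp3-positive and CD8 T cells.

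Counts over all genes moved by more than 1.5 times as follows. T cells against macrophages had 3076 with no filter and 1231 without the libraries labelled heart TIL and liver TIL. Ctla4/Foxp3-positive against CD8 T cells had 607 with cells of several gates kept, 155 by DESeq2, 160 without liver PC, 216 without both TIL libraries and 1 without the block, in place of 393. Against CD4 T cells the count was 7, 5, 4 and 7 with strict gates, DESeq2, no block and without liver PC, in place of 16. CD4 against CD8 T cells had 113 with no filter, 11 by DESeq2, 3 without the block and 7 without the library labelled liver TIL, in place of 28. B cells against macrophages had 102 with the floor of 1000, 342 with cells of several gates kept, 93 by DESeq2, 1 without the block and 0 to 459 with 1 library left out, in place of 169. B cells against T cells had 134 with cells of several gates kept, 112 by DESeq2, 2 without the block, and 107 and 117 without heart PBMC and liver PBMC, in place of 209. Cd80 and Cd40lg had too few UMIs for most comparisons, and low depth and low expression cannot be told apart there.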
